A study of Marchantia polymorpha with 12 samples.

Results

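The wound response of wild-type Tak-1 thalli was followed in the liverwort Marchantia polymorpha by setting 3 libraries of wounded thalli against 3 libraries of intact thalli. Tak-1 is a male laboratory accession, and a thallus is the flat, haploid plant body. All thalli were 14 days old and had grown from gemmae on agar with Gamborg B5 medium. Control thalli were collected intact, and wounded thalli were collected 1 h after their blades had been cut. The labels call each replicate an independent biological replicate of 12 plants, so each value is an average over pooled plants. These are 6 of the 12 libraries of the series. The other 6 hold the line labelled Mperf15ko, intact and wounded in the same way, whose lesion the labels do not describe. It enters here to estimate the spread between replicates, to give expression classes that do not rest on the libraries compared, and in one comparison of the responses.

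In land plants a cut sets off calcium signals and protein kinase cascades within minutes. It also starts the production of oxylipins, a class of signals derived from fatty acids by oxidation. Marchantia does not make jasmonic acid and uses the related dinor-OPDA instead, which binds the receptor COI1 and leads to the loss of the repressor JAZ. Known wound responses of plants include the production of phenolic defence compounds and of proteins that protect drying cells, and a lower expression of growth genes.

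The 6 libraries held 17.8 to 30.4 M estimated reads. Between 12640 and 12993 genes reached 1 TPM (a level scaled for transcript length and library size). Replicates of a group correlated at 0.990 to 0.996 in log2 read counts scaled for library size. No pair of them was the same library by a chi-square test of counts, with 18.6 to 59.2 per gene. Wounded and intact thalli lay apart on the first principal component, which took up 83.7% of the variance. Wounded replicate 1 was the shallowest library, and its 10 most abundant genes took 10.9% of its reads, against 6.2% to 8.6% in the other 5 libraries. Of 12 tested cell type markers, 6 were called higher in wounded thalli and 0 lower (5 and 2 with upper quartile scaling). Of all tested genes, 23.4% were called higher and 22.8% lower. Not all of them mark thallus cells, since the list also holds the germ line marker MpDUO1 and the sporophyte marker MpBELL4. MpDUO1, under 1 TPM in every library, was among the 6 (1.54 on the log2 scale, SE 0.33). Summed without the Rubisco subunit gene MpRBCS, the 12 remaining listed markers came to 81.8 to 104 TPM in intact thalli and to 152 to 176 TPM in wounded thalli. This sum pools markers of different cell types, and MpSYP13A alone went from 37.1, 40.9 and 36.1 TPM to 70.7, 67.7 and 73.8 TPM. MpGCAM1, a gemma cup regulator, and MpC1HDZ, an oil body regulator, rose by 2.48 and 2.32 on the log2 scale. MpSYP13A and MpNOP1, listed for air chambers, and MpSYP13B, listed for the apical region, rose by 0.89, 0.55 and 0.50. The oil body genes MpERF13, MpSYP12B, MpABCG1 and MpR2R3-MYB2 were not called. The part of tissue composition in the results was not tested, and in RNA from whole thalli fewer cells of a type and less RNA per cell cannot be told apart.

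Of the 14246 genes tested with edgeR's quasi-likelihood test, 46.2% were called at a Benjamini-Hochberg adjusted p under 0.05. The calls were split almost evenly by number, with 3336 genes higher (23.4% of those tested) and 3246 lower (22.8%). They were not alike in size. Called rises had a median of 0.95 on the log2 scale and reached 2.91 at their 90th percentile, while called falls had a median size of 0.55 and reached 1.13. Changes of 2-fold or more were found in 1596 genes that rose (11.2%) and in 454 that fell (3.19%). The even split depended on scaling, since higher genes made up 50.7% of the calls with TMM scaling and 36.2% with upper quartile scaling, which moved the median of all genes by -0.133. The excess of large rises over large falls remained with upper quartile scaling, where 754 genes fell by 2-fold or more.

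Grouped by fold, 998 of the genes that rose changed by less than 1.5-fold, 742 by 1.5- to 2-fold, 904 by 2- to 4-fold, 380 by 4- to 8-fold, 250 by 8- to 32-fold and 62 by 32-fold or more. Of the genes that fell, 1778 changed by less than 1.5-fold, 1014 by 1.5- to 2-fold, 414 by 2- to 4-fold and 34 by 4- to 8-fold. Only 6 fell further, 5 of them by 8- to 32-fold. The size of a rise went with the level before wounding. The median TPM in intact thalli was 23.3 among genes that rose by less than 1.5-fold, 7.18 among those at 2- to 4-fold, 0.99 at 8- to 32-fold and 0.0606 at 32-fold or more. A gene counted few times before wounding must rise far to be called, and its fold rests on few reads, so this order is a description with no test.

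Genes that rose furthest also had shorter transcripts and fewer annotated isoforms. The median length of the longest transcript was 2630 bases for rises under 1.5-fold, 2400 bases at 2- to 4-fold, 1640 bases at 8- to 32-fold and 1350 bases at 32-fold or more. The share of genes with more than 1 annotated transcript went from 23.8% to 8.1% over the same range. Among genes that fell the median length was 2500 bases under 1.5-fold, 2420 bases at 1.5- to 2-fold, 2480 bases at 2- to 4-fold and 2020 bases at 4- to 8-fold. Their share with more than 1 transcript went down as well, from 20.5% through 16.3% and 12.8% to 2.9%. All tested genes had a median of 2280 bases. Genes with low levels and short transcripts collect few reads, and the part of this in the order of lengths was not tested.

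**Figure D1:**
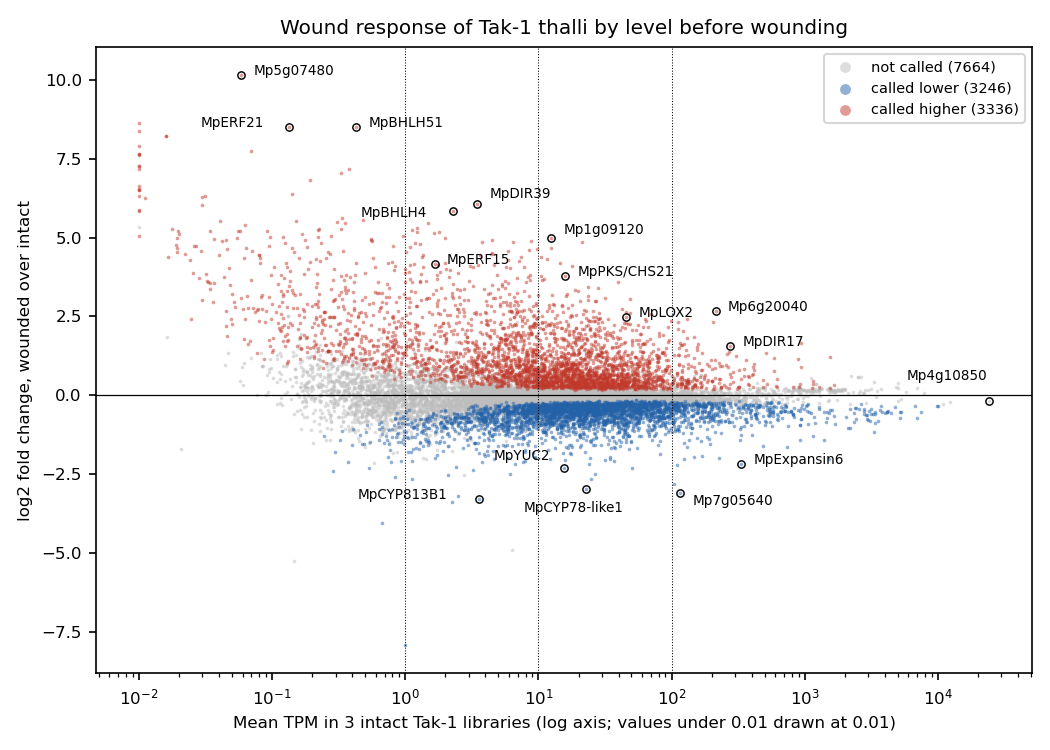
Each point is 1 of 14246 tested genes, with its mean TPM in the 3 intact Tak-1 libraries on a log axis and its fitted log2 fold change, wounded over intact, on the vertical axis. Red points were called higher (3336), blue points lower (3246) and grey points were not called. Large rises sit at the left, at low levels before wounding, while falls crowd at moderate and high levels, and dotted lines mark the class limits of 1, 10 and 100 TPM.

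Sorted by level in intact thalli, rises outnumbered falls in the lowest class and falls outnumbered rises in the highest. Among the 1691 tested genes under 1 TPM in intact thalli, 516 rose (30.5%) and 55 fell (3.3%). Between 1 and 10 TPM, 1050 of 4686 rose (22.4%) and 785 fell (16.8%), an order that turned with upper quartile scaling (909 and 1221). Between 10 and 100 TPM, 1587 of 6554 rose (24.2%) and 1914 fell (29.2%). At 100 TPM or more, 183 of 1315 rose (13.9%) and 492 fell (37.4%). Rises of 2-fold or more went from 28.9% of genes under 1 TPM to 3.0% of genes at 100 TPM or more, whereas falls of 2-fold or more stayed between 2.4% and 3.9% in all 4 classes. The median standard error of a log2 fold change was 0.443 under 1 TPM and 0.0933 at 100 TPM or more, so that a fall of a rare gene is harder to call than an equal fall of an abundant one.

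Classes drawn from intact Tak-1 libraries share those libraries with the fold changes. With classes from intact Mperf15ko thalli, which are no part of the contrast, the order was the same. Then 576 genes rose and 90 fell under 1 TPM, 908 rose and 837 fell between 1 and 10 TPM, 1631 rose and 1868 fell between 10 and 100 TPM, and 221 rose and 451 fell at 100 TPM or more. With classes from the mean of all 6 Tak-1 libraries, 276 genes rose and 90 fell under 1 TPM, and 320 rose and 416 fell at 100 TPM or more. The classes between turned around, with 838 rises and 900 falls at 1 to 10 TPM and 1902 rises and 1840 falls at 10 to 100 TPM. Rises of 2-fold or more then made up 17.4%, 10.7%, 10.4% and 10.3% of the classes from lowest to highest, so that they did not thin out above 1 TPM.

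**Figure D2:**
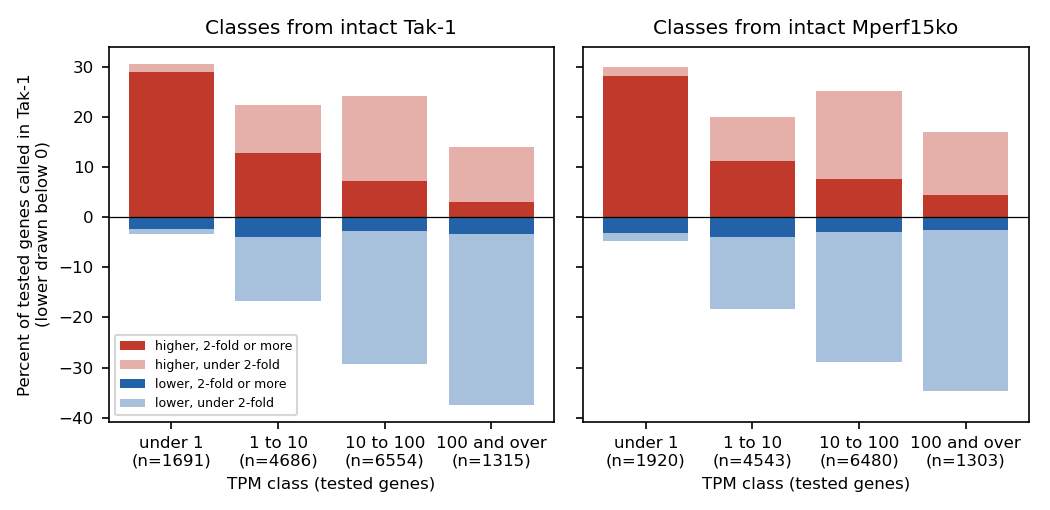
Bars give the percentage of tested genes called in wounded Tak-1, higher above 0 and lower below 0, in 4 classes of TPM before wounding, with changes of 2-fold or more in full colour. Classes come from intact Tak-1 on the left and from intact Mperf15ko on the right, and in both panels rises lead under 1 TPM (30.5% and 30.0%) and falls lead at 100 TPM or more (37.4% and 34.6%).

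Among genes that were nearly silent before wounding, the leading risers with a symbol were the transcription factors MpERF21 and MpBHLH51 and the late embryogenesis abundant gene MpLEA-like53. MpERF21 (Mp5g22160), of the AP2/ERF family, was at 0.113, 0.0549 and 0.233 TPM in intact replicates 1 to 3 and at 44.0, 47.0 and 58.0 TPM in wounded ones. MpBHLH51 (Mp8g06230), of the bHLH family, went from 0.180, 0.507 and 0.602 TPM to 137, 145 and 158 TPM. The leaders of each class were chosen for groups that do not overlap, so gaps between the groups are no test. Wounded TPM lay wholly above intact TPM in 26.8% of all tested genes and wholly below in 26.4%. The fitted log2 fold changes were 8.51 (SE 0.71, edgeR adjusted p = 7.1e-06) for MpERF21 and 8.51 (SE 0.23, adjusted p = 3.7e-11) for MpBHLH51. MpBHLH51 was the single gene of this class whose mean passed 100 TPM after wounding.

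The largest rise of any named gene was that of Mp5g07480, which has no symbol. It had 1, 0 and 1 reads in intact thalli and 666, 749 and 884 reads in wounded thalli, or 79.6 to 91.8 TPM. The ratio of its pooled read rates was 1330, with a 95% interval of 369 to 11000 that covers counting error only. MpLEA-like53 (Mp6g13380) had 1, 0 and 0 reads against 17, 34 and 47, a ratio of 114 with an interval of 19.9 to 4530. Both genes had whole counts, meaning that no read was shared with another transcript.

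Such near-silent genes mostly stayed at low levels after they had risen. Of the 516 genes that rose from under 1 TPM, the median reached 1.47 TPM in wounded thalli and 25 reached 10 TPM. No read was counted in any intact library for 19 tested genes, and all 19 were called higher. Of the 39 tested genes with 1 to 3 reads over the intact libraries 36 were called higher. Both sets passed the filter on low counts only through their wounded libraries or those of Mperf15ko, so that these counts were largely fixed by the filter and support nothing.

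Of the 55 genes that fell from under 1 TPM, those with a symbol that fell furthest without overlap of the groups were MpASLBD2, of the LBD family of transcription factors, MpSUVR4, of a histone methyltransferase family, and the microRNA locus MpMIR160. MpASLBD2 (Mp8g11560) was at 0.686, 0.402 and 0.512 TPM in intact thalli and at 0.123, 0.0379 and 0.161 TPM in wounded ones (log2 fold change -2.30, SE 0.41, edgeR adjusted p = 0.00034). MpSUVR4 changed by -2.10 (SE 0.44, adjusted p = 0.0013). By the rule of choice, the levels of the groups did not overlap in either gene. The transcript of MpMIR160, the precursor of a microRNA that in other plants directs the cleavage of auxin response factor messages, had 21, 39 and 32 reads against 3, 12 and 4. Its change of -2.09 (SE 0.59, adjusted p = 0.0096) fell short of the threshold without wounded replicate 3 (-1.75). Mp8g02570, with no symbol, had 102 reads over the intact libraries and 0 over the wounded ones, at least 29.4-fold lower against a floor of 3 reads over the wounded group, and it shared reads with other transcripts.

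Between 1 and 10 TPM the leading risers were MpDIR39, of the dirigent family that guides the coupling of phenolic radicals, the bHLH factor MpBHLH4 and the polyphenol oxidase MpPPO3. MpDIR39 (Mp5g16510) went from 2.43, 3.16 and 4.85 TPM to 174, 266 and 232 TPM (log2 fold change 6.06, SE 0.24, edgeR adjusted p = 8.4e-10). MpBHLH4 (Mp2g00930) went from 1.69, 1.91 and 3.22 TPM to 119, 140 and 137 TPM (5.85, SE 0.36). In both genes, chosen for groups that do not overlap, the lowest wounded library stood far above the highest intact one. MpPPO3 changed by 5.23 (SE 0.37) and Mp6g00400, with no symbol, by 5.47 (SE 0.19). MpDIR39 and MpPPO3 shared reads with similar transcripts, while MpBHLH4 and Mp6g00400 had whole counts.

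The leading falls of this class were MpCYP813B1, a cytochrome P450, the receptor-like kinase MpRLK-Pelle_CR4L4 and the class III peroxidase MpPOD68. MpCYP813B1 (Mp3g22470) went from 5.14, 2.77 and 2.79 TPM to 0.356, 0.467 and 0.259 TPM (log2 fold change -3.30, SE 0.34, edgeR adjusted p = 1.9e-06). MpRLK-Pelle_CR4L4 changed by -2.49 (SE 0.32) and MpPOD68 by -2.10 (SE 0.35). All 3 had whole counts, and by the rule of choice their groups did not overlap. Mp7g12410, with no symbol, had 238, 88 and 74 estimated reads in intact thalli and 0, 26 and 5 in wounded ones. Its change of -3.39 (SE 1.1, adjusted p = 0.037) lost its call with DESeq2, and in the edgeR fit without any 1 of intact replicates 1, 2 and 3 (-2.94, -3.48 and -3.61) or wounded replicates 1 and 3 (-2.87 and -2.98).

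From 10 to 100 TPM the rises were led by enzymes of phenolic metabolism and a phosphatase. MpPKS/CHS21 (Mp7g14930), of the chalcone synthase-type polyketide synthases, went from 14.5, 14.7 and 18.2 TPM to 198, 241 and 216 TPM (log2 fold change 3.77, SE 0.19, edgeR adjusted p = 7.8e-09). MpPP2C_F1 (Mp3g18710), a protein phosphatase 2C, went from 25.8, 23.7 and 20.6 TPM to 212, 262 and 278 TPM (3.42, SE 0.13). MpPKS/CHS18 changed by 3.34 (SE 0.26). By the rule of choice, the groups did not overlap in any of the 3 genes. Mp1g09120, with no symbol, rose further still, from 10.7, 11.7 and 14.8 TPM to 380, 398 and 414 TPM (4.99, SE 0.30).

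Falls in the same class included the auxin synthesis gene MpYUC2. MpCYP78-like1 (Mp1g14150), of a P450 family that in flowering plants acts in organ growth, went from 31.0, 19.6 and 18.2 TPM to 2.74, 2.88 and 3.10 TPM (log2 fold change -2.97, SE 0.33, edgeR adjusted p = 2.5e-05). MpEXL1 (Mp7g19250), listed with the expansins, went from 23.2, 28.2 and 22.8 TPM to 3.73, 4.07 and 3.98 TPM (-2.66, SE 0.20). The wounded libraries lay close together in both genes, which were chosen for groups that do not overlap. MpYUC2 (Mp8g08780) went from 15.7, 16.4 and 14.6 TPM to 3.49, 2.47 and 3.58 TPM (-2.30, SE 0.17), and Mp3g14120, with no symbol, changed by -2.50 (SE 0.23).

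Genes at 100 TPM or more moved by smaller factors. MpPOD164 (Mp8g01700), a class III peroxidase, went from 122, 98.3 and 125 TPM to 298, 426 and 368 TPM (log2 fold change 1.66, SE 0.13, edgeR adjusted p = 1.4e-07). MpDIR17 (Mp7g06220), a dirigent gene, went from 287, 255 and 289 TPM to 729, 865 and 880 TPM (1.56, SE 0.11), and MpSK1 changed by 1.53 (SE 0.099). These genes about tripled, a far smaller factor than that of the leaders under 1 TPM. The largest rise of the class was that of Mp6g20040, with no symbol, from 230, 198 and 213 TPM to 1190, 1510 and 1460 TPM (2.69, SE 0.12).

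Among genes at 100 TPM or more, 45 fell by 2-fold or more. MpExpansin6 (Mp1g24230), of the proteins that loosen cell walls, went from 338, 356 and 298 TPM to 60.1, 77.3 and 81.8 TPM (log2 fold change -2.19, SE 0.24, edgeR adjusted p = 2.1e-05). MpMDHAR3 (Mp7g06510), a monodehydroascorbate reductase that regenerates ascorbate, went from 133, 139 and 120 TPM to 41.9, 42.2 and 42.0 TPM (-1.64, SE 0.088). The wounded values of MpMDHAR3 were nearly equal. MpPL1.3 changed by -2.01 (SE 0.20), and Mp7g05640, with no symbol, fell furthest of the class, from 104, 132 and 109 TPM to 14.1, 13.2 and 13.6 TPM (-3.09, SE 0.16).

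**Figure D3:**
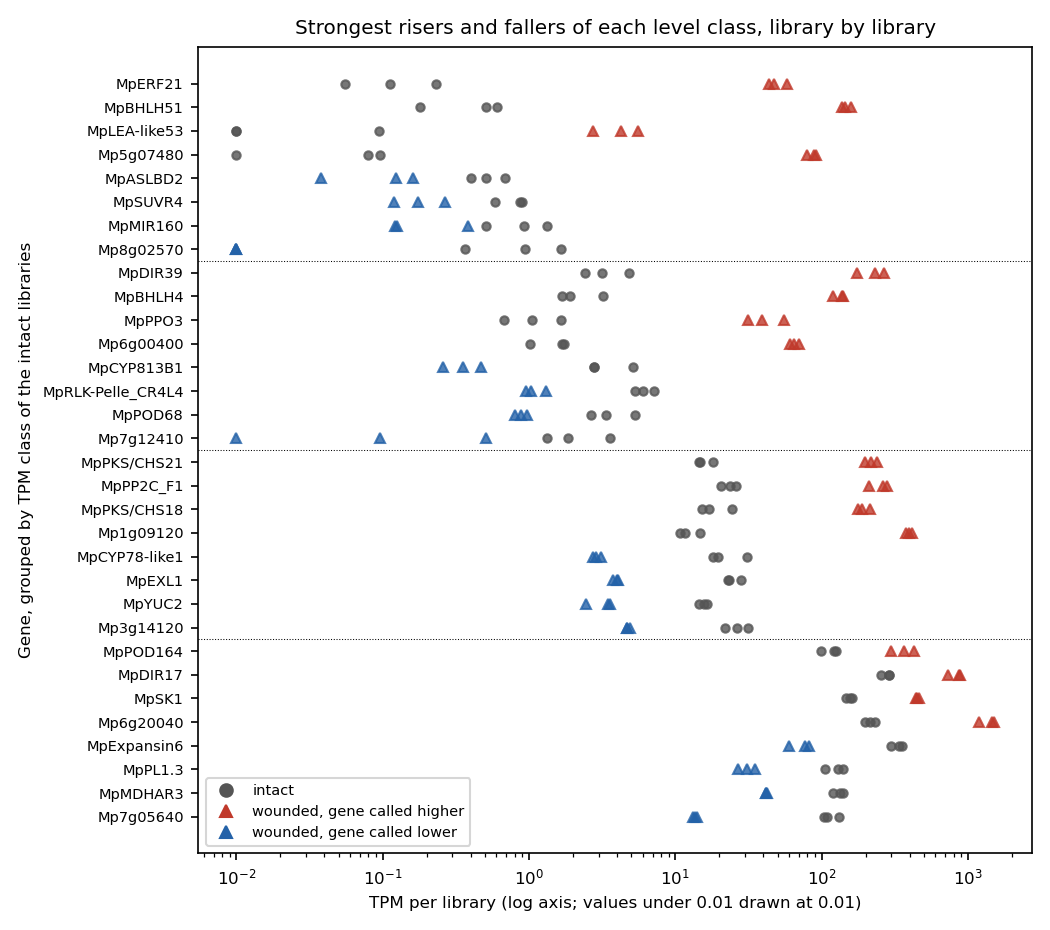
Each row is 1 gene chosen by its fold within a class of TPM before wounding, with the TPM of the 3 intact libraries as grey circles and that of the 3 wounded libraries as red triangles (gene called higher) or blue triangles (gene called lower), on a log axis. The genes were chosen for groups that do not overlap, so the gaps are no test, and the distance between the groups shrinks from the top of the plot to the bottom, as from MpBHLH51 (0.429 to 146 TPM) to MpDIR17 (277 to 825 TPM).

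The most abundant transcripts of each group changed little, apart from that of Mp6g09310. Mp4g10850, the most abundant gene, held 23300, 25800 and 24300 TPM in intact thalli and 20400, 21200 and 23700 TPM in wounded ones, and was not called (log2 fold change -0.18, SE 0.11, edgeR adjusted p = 0.18), though it passed with upper quartile scaling (-0.31). Mp7g09180 (-0.22, SE 0.088) and Mp7g02900 (-0.26, SE 0.18) were not called either, though Mp7g09180 passed with DESeq2 (-0.20) and with upper quartile scaling (-0.35). Mp4g15080 and Mp4g06050 fell slightly, each with a log2 fold change of -0.34 (SE 0.098 and 0.099), and their calls ended without wounded replicate 1 (-0.26 and -0.28). Mp6g09310 stood apart by its spread. It held 5550, 5640 and 8300 TPM in intact thalli but 13900, 11800 and 4940 TPM in wounded ones, so that wounded replicate 3 lay below every intact library and the change of 0.64 (SE 0.48, adjusted p = 0.32) was not called. Mp2g12030, also among the most abundant after wounding, changed by 0.08 (SE 0.13) and was not called. Small changes did not extend to all abundant genes. Mp7g06710 went from 7170, 8120 and 6960 TPM to 4510, 5160 and 5880 TPM (-0.53, SE 0.12, edgeR adjusted p = 0.0018). Mp7g06790 changed by -0.73 (SE 0.11), while Mp2g12010 was not called (0.22, SE 0.13). Among all tested genes at 100 TPM or more in intact thalli, 37.4% were called lower and 13.9% higher.

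Summed over all genes, called or not, the differences between the group means came to a gain of 14.51% of the TPM pool and an equal loss. Genes at 100 TPM or more in intact Mperf15ko thalli held 75.1%, 76.0% and 77.1% of the pool in intact Tak-1 and 73.3%, 71.7% and 71.6% in wounded Tak-1, a difference of -3.849 percentage points. Genes under 1 TPM held 0.217%, 0.209% and 0.219% before wounding and 0.518%, 0.577% and 0.566% after it. The 2 groups of libraries did not overlap in any class, and each of the 4 differences had p = 0.1 in an exact 2-sided permutation test, the smallest p that 3 against 3 libraries allow. In shares of estimated reads the class at 10 to 100 TPM overlapped, with 33.7% in intact replicate 1 and 33.6% in wounded replicate 1 (exact permutation p = 0.2). The class at 1 to 10 TPM went from 2.51% ± 0.13 to 3.39% ± 0.164 and the class at 10 to 100 TPM from 21.2% ± 0.866 to 23.9% ± 0.757 (mean ± SD, n = 3).

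Few genes carried much of this movement. Among the 9183 genes whose mean TPM was lower after wounding, 73 made up 50% of the loss, and among the 8765 whose mean was higher, 219 made up 50% of the gain. Of the 10 largest gains 8 were not called, among them that of Mp6g09310, so the summed movement includes spread between replicates. The leading gains that were called had no symbol. Mp2g19940 went from 1320, 1480 and 1830 TPM to 3680, 3540 and 3690 TPM (log2 fold change 1.22, SE 0.13, edgeR adjusted p = 2.8e-06). Mp5g03550 went from 948, 944 and 922 TPM to 2810, 3080 and 2980 TPM (1.65, SE 0.097). Both more than doubled with little spread. Mp5g01910 joined them from a far lower level, from 21.0, 22.7 and 19.6 TPM to 610, 632 and 638 TPM (4.87, SE 0.11). Among called losses, Mp4g06030 went from 6500, 7330 and 7030 TPM to 4130, 4210 and 4460 TPM (-0.72, SE 0.095).

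Gene lists filled from symbols were read against the shares of all tested genes called higher (23.4%) and lower (22.8%). They were chosen with earlier results of these data known, and no list was tested as a set. In signalling, the MAP kinase cascade had 12 of 29 members higher and 3 lower (11 and 7 with upper quartile scaling). MpMAPKKK10 led with 5.55, 5.61 and 4.35 TPM before and 29.4, 41.2 and 40.5 TPM after wounding (log2 fold change 2.83, SE 0.12, edgeR adjusted p = 3.8e-10). MpMKK3 rose by 1.11, and of the 3 MAP kinases at the end of the cascade MpMPK3 rose by 0.31, MpMPK2 changed by -0.24 and MpMPK1 was not called (0.14). Phosphatases 2C, negative regulators of kinase and abscisic acid signalling in other plants, had 11 of 19 higher and 2 lower (8 and 4 with upper quartile scaling), led by MpPP2C_F3 (3.80, SE 0.15). The calmodulin-like gene MpCML42 went from 10.7, 13.7 and 13.6 TPM to 106, 118 and 123 TPM (3.18, SE 0.21). Receptor-like kinases were balanced, with 20 higher and 20 lower of 83 (19 and 25 with upper quartile scaling). Their largest rise was MpRLK-Pelle_L-LEC4, from 12, 16 and 12 reads to 327, 548 and 444 reads. Intracellular NBS-LRR receptors had 11 of 20 higher and 2 lower (10 and 3 with upper quartile scaling). With TMM scaling 4 of them rose by 2-fold or more.

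Hormone genes moved in part in both directions. In oxylipin synthesis 7 of 17 members rose, all of them by 2-fold or more, and 4 fell (7 and 6 with upper quartile scaling). The risers started from very different levels. MpLOX2, a lipoxygenase, went from 46.5, 42.9 and 46.6 TPM to 226, 279 and 266 TPM (log2 fold change 2.49, SE 0.11, edgeR adjusted p = 3.8e-10), whereas MpLOX6 went from 0.334, 0.0441 and 0.288 TPM to 2.62, 0.825 and 1.54 TPM (2.80, SE 0.72). With like fitted folds, MpLOX6 stayed far below MpLOX2 after wounding. MpJAZ, the repressor of the pathway, went from 20, 16 and 15.7 TPM to 87.1, 102 and 100 TPM (2.48, SE 0.086), and the receptor gene MpCOI1 was not called (-0.10). MpERF15, the AP2/ERF gene in the name of the second line, went from 1.5, 1.83 and 1.64 TPM to 20.1, 34.7 and 34.6 TPM (4.17, SE 0.37).

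Of 14 auxin genes 6 fell and 5 rose (6 and 3 with upper quartile scaling). Both tested genes of the auxin synthesis route fell, MpTAA by -1.62 and MpYUC2 by -2.30 on the log2 scale, as did the importer gene MpAUX1 (-1.96) and the exporter gene MpPIN1 (-1.05). The exporter gene MpPIN3 rose instead, from 12.4, 9.91 and 11.6 TPM to 45.3, 64.3 and 63.4 TPM (2.34, SE 0.16, edgeR adjusted p = 4.2e-08). MpGH3A, of a family that conjugates auxin or other hormones to amino acids, rose by 2.22. SAUR genes, small genes induced by auxin in flowering plants, had 6 of 13 higher and 4 lower. All 6 rises were of 2-fold or more, led by MpSAUR8 (4.19, SE 0.26), and MpSAUR3 fell furthest, from 38.8, 39.6 and 31.6 TPM to 7.66, 9.05 and 9.20 TPM (-2.09, SE 0.12).

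For abscisic acid, a hormone of drought responses, 4 of 9 genes rose and 3 fell (3 and 3 with upper quartile scaling). MpNCED, which opens the way from carotenoids to the hormone, went from 0.280, 0.0396 and 0.201 TPM to 1.64, 3.39 and 3.06 TPM (log2 fold change 3.85, SE 0.51, edgeR adjusted p = 2e-05). The receptor gene MpPYL1 fell by -0.71 and the kinase gene MpSNRK2A rose by 0.97. Of 11 cytokinin genes 2 rose, the receptor MpCHK1 (1.72, SE 0.11) and the response regulator MpRRA (0.71), and 3 fell (2 and 5 with upper quartile scaling). Of 8 ethylene genes MpEIN2 (0.77) and MpCTR1 (0.38) rose, and MpEIL (-0.65) and MpACS (-0.46) fell (1 and 3 with upper quartile scaling).

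Among transcription factors, all 13 tested WRKY genes rose with either scaling, 10 of them by 2-fold or more with TMM scaling. Their levels before wounding spanned 0.373 TPM for MpWRKY6 to 162 TPM for MpWRKY11, and MpWRKY14 rose most, from 8.91, 6.78 and 8.60 TPM to 94.7, 99.3 and 104 TPM (log2 fold change 3.60, SE 0.31, edgeR adjusted p = 3.1e-06). Of 8 NAC genes 6 rose and 0 fell (5 and 0 with upper quartile scaling). bZIP genes had 8 of 15 higher and 4 lower (7 and 5 with upper quartile scaling). AP2/ERF genes had 9 of 22 higher and 5 lower (8 and 7 with upper quartile scaling), with 8 of the rises at 2-fold or more. GRAS factors pointed the other way, with 6 of 12 lower and 2 higher (7 and 2 with upper quartile scaling). MpGRAS7 rose all the same, from 11, 16 and 6 reads to 171, 266 and 298 reads. MYB genes had 13 of 45 lower and 6 higher (18 and 4 with upper quartile scaling), with Mp1R-MYB17 changing by -2.04 (SE 0.28). The single CAMTA gene, MpCAMTA, of the calmodulin-binding factors, rose by 1.20 (SE 0.095). Of 6 heat shock genes 0 rose and 4 fell, among them the regulator MpHSF1 (-0.96, SE 0.11).

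Among protective and degradative functions, LEA genes had 46 of 62 members higher, 42 of them by 2-fold or more, and 5 lower. With upper quartile scaling 45 were higher and 6 lower. Most LEA genes were low before wounding, with a median of 4.61 TPM. MpLEA-like56 fell against this, from 89.6, 84.5 and 70.9 TPM to 19.4, 23.1 and 24.5 TPM (log2 fold change -1.87, SE 0.15, edgeR adjusted p = 1.7e-07). Autophagy genes had 10 of 21 higher and 1 lower (9 and 3 with upper quartile scaling), and 9 of the 10 rises were below 2-fold. MpATG18c was the exception and went from 4.86, 6.45 and 4.83 TPM to 46.3, 45.7 and 39.1 TPM (2.95, SE 0.13). Antioxidant genes were mixed, with 9 of 24 higher and 6 lower (7 and 8 with upper quartile scaling). The catalase gene MpCAT1 rose from 2, 0 and 3 reads to 43, 79 and 93 reads, while the abundant catalase gene MpCAT2, at 969 TPM before wounding, was not called (-0.08).

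In phenolic metabolism the lists differed in direction. Rises among polyphenol oxidases and cytochromes P450 were near the share of all tested genes called higher (23.4%). General phenylpropanoid genes had 7 of 15 higher and 5 lower (6 and 6 with upper quartile scaling), led by the phenylalanine ammonia-lyase MpPAL7, from 3.36, 4.45 and 4.79 TPM to 33.5, 45.4 and 39.1 TPM (log2 fold change 3.22, SE 0.21, edgeR adjusted p = 3.8e-08). The 4-coumarate ligase genes Mp4CL1 and Mp4CL2 rose by 3.17 and 1.63. Polyketide synthases had 11 of 21 higher and 4 lower (11 and 5 with upper quartile scaling). Dirigent genes had 20 of 51 higher and 5 lower (19 and 9 with upper quartile scaling). Polyphenol oxidases had 11 of 42 higher and 5 lower (11 and 7 with upper quartile scaling). Flavonoid genes had 10 of 27 lower and 5 higher (11 and 3 with upper quartile scaling). MpF3H fell from 105, 76.3 and 88.9 TPM to 40.7, 41.9 and 48.3 TPM (-1.05, SE 0.11). Class III peroxidases had 54 of 131 lower and 10 higher (72 and 10 with upper quartile scaling). UDP-glycosyltransferases had 13 of 30 lower and 5 higher (15 and 3 with upper quartile scaling). Cytochromes P450 had 30 of 93 lower and 22 higher (35 and 18 with upper quartile scaling). Within the P450 genes MpCYP815A1 rose from 9.24, 6.88 and 9.17 TPM to 194, 223 and 209 TPM (4.62, SE 0.14). Glutathione S-transferases had 11 of 33 higher and 7 lower (10 and 9 with upper quartile scaling).

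Genes of growth had more falls than rises in 3 lists. Replication and cell cycle genes had 14 of 24 lower and 1 higher (14 and 0 with upper quartile scaling). The largest was MpMCM6, of the helicase that opens DNA for replication, from 5.14, 3.68 and 3.83 TPM to 1.29, 1.67 and 1.75 TPM (log2 fold change -1.43, SE 0.18, edgeR adjusted p = 1.2e-05). Histone genes had 9 of 25 lower and 0 higher (15 and 0 with upper quartile scaling), among them the linker histone MpH1 (-1.04, SE 0.13), while the abundant replacement histone MpH3.3b was not called (0.13). Expansins had 14 of 36 lower and 6 higher (17 and 6 with upper quartile scaling). All 5 rises other than MpExpansin20 were of expansin-like genes, MpEXL2 to MpEXL5 and MpEXL9. MpTUB2, a tubulin gene, fell by -0.82 (SE 0.097). ABC transporters had 30 of 90 higher and 21 lower (25 and 31 with upper quartile scaling). PPR genes, which act on organelle RNA, had 23 of 73 lower and 14 higher (31 and 10 with upper quartile scaling). Germin-like cupins had 16 of 46 lower and 7 higher (21 and 6 with upper quartile scaling).

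Peptide signals and secreted defence proteins changed in both directions. Of 9 genes for peptide ligands 4 rose and 3 fell (3 and 3 with upper quartile scaling). MpIDA2, of a family that acts in organ shedding in flowering plants, had 0.277, 0.391 and 0.380 TPM before and 4.24, 4.69 and 4.37 TPM after wounding (log2 fold change 3.65, SE 0.34, edgeR adjusted p = 6.5e-07). MpRGF, of the root meristem growth factor family, fell from 47.0, 46.3 and 51.5 TPM to 15.9, 15.6 and 13.9 TPM (-1.69, SE 0.11). The groups did not overlap in either gene, as in 26.8% (upward) and 26.4% (downward) of all tested genes. PR1, chitinase and thaumatin genes had 10 of 31 higher and 6 lower (9 and 7 with upper quartile scaling). With TMM scaling 9 of the rises were of 2-fold or more. Glycoside hydrolases had 32 of 106 lower and 22 higher (41 and 19 with upper quartile scaling). Zinc finger genes had 15 of 61 lower and 11 higher (26 and 6 with upper quartile scaling). The bHLH factors, which held some of the large rises given above, had 12 of 37 lower and 11 higher (13 and 11 with upper quartile scaling).

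**Figure D4:**
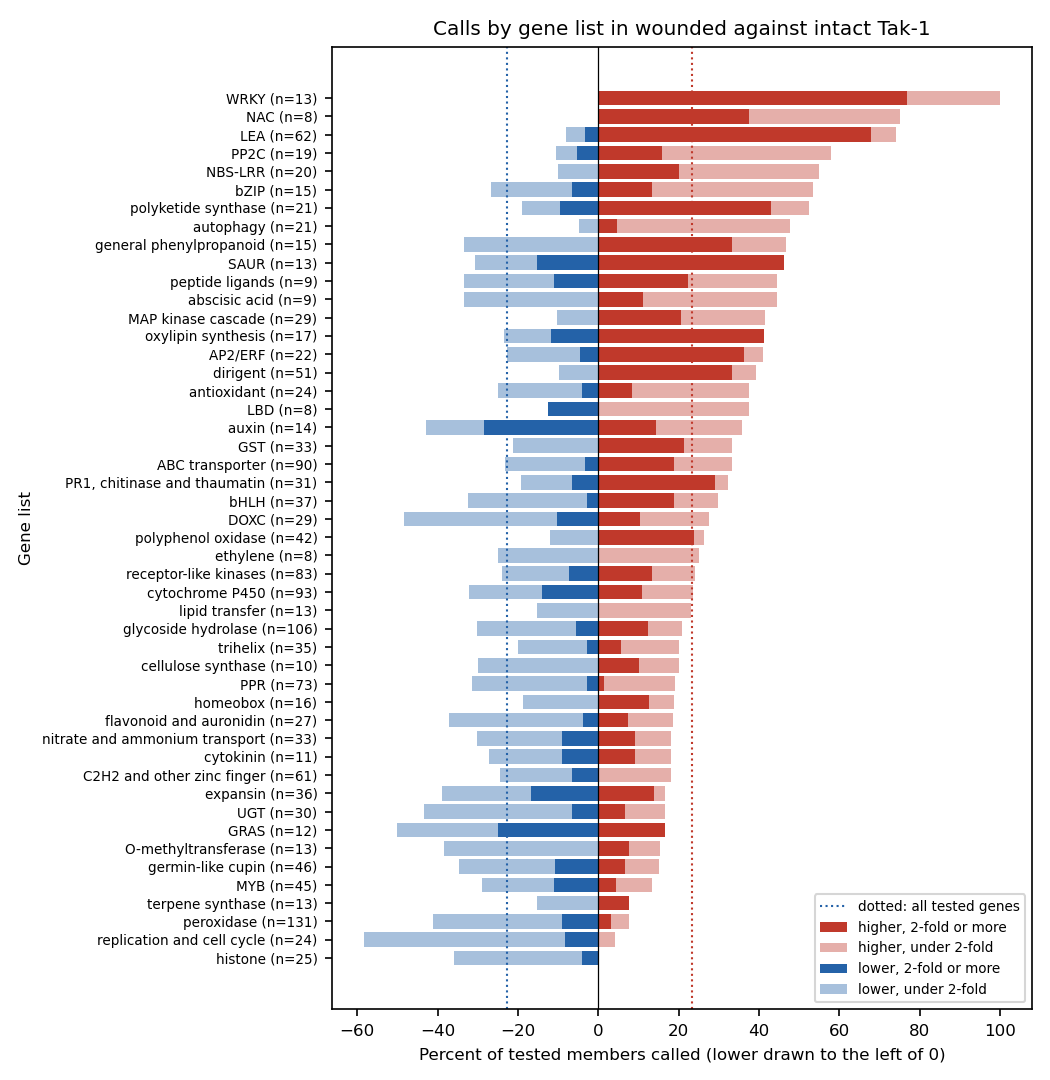
Bars give the percentage of tested members called higher (right of 0) and lower (left of 0) with TMM scaling in 48 lists with 8 or more tested members, with changes of 2-fold or more in full colour. Dotted lines mark the shares over all tested genes, 23.4% higher and 22.8% lower. WRKY genes stand at the top with 13 of 13 higher and histone genes at the bottom with 0 of 25 higher, and with upper quartile scaling most bars shift towards lower.

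Isoform use was examined in the 2347 genes with at least 2 tested transcripts. In 106 of these genes all tested transcripts were called higher and in 16 all were lower, while 339 had some higher and none lower, 270 some lower and none higher, and 8 had transcripts called in opposite directions. The remaining 1608 had no transcript called. A test of whether the transcripts of a gene changed by different folds, edgeR's diffSpliceDGE, called 28 genes (1.19% of those tested), with 278 at an unadjusted p under 0.05. The level of the gene itself was not called in 10 of the 28 and rose in 14 and fell in 4. The most abundant transcript changed in 5 genes. The transcript that gained share was the longer of the pair in 19 genes and the shorter in 9.

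Mp7g09280, with no symbol, gave the clearest change. Its first transcript, of 2870 bases, held 4.5%, 1.1% and 2.3% of the gene's TPM in intact thalli and 30.4%, 33.5% and 36.4% in wounded ones (edgeR adjusted p = 0.00016). That transcript rose from 1.20, 0.264 and 0.549 TPM to 6.41, 6.39 and 7.74 TPM, while the second transcript, of 2225 bases, fell from 25.2, 24.8 and 22.8 TPM to 14.7, 12.7 and 13.5 TPM. The gene's sum was not called (log2 fold change -0.15, SE 0.088, adjusted p = 0.17; -0.29 and called with upper quartile scaling), so a count per gene misses the exchange. Its neighbour Mp7g09270 was also called, with edgeR adjusted p = 0.028, a call that held in 3 of 10 alternatives, and there the first transcript fell from 12.9 to 7.55 TPM and the second rose from 3.18 to 5.18 TPM on average.

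Mp7g16390 likewise exchanged transcripts at a constant level. The share of its first transcript, of 2127 bases, went from 36.7%, 32% and 37.8% to 72.5%, 59.3% and 63.9% (edgeR adjusted p = 0.0056), with the gene at 15.4 TPM before and 15.5 TPM after wounding. The leading transcript was thus another one in every wounded library. In Mp7g01880, which fell by -0.71 (SE 0.068), the third transcript gained share from 37.5%, 20.3% and 34.2% to 64.3%, 58.0% and 67.7%, since the second fell by -1.55 and the third was not called (0.35). In Mp4g10190, which rose by 0.95 (SE 0.066), the first transcript went from 18.9%, 8.5% and 16% to 39.0%, 40.0% and 27.6%.

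The change in Mp4g04660 was the largest in share and rested on uneven controls. Its first transcript held 89.2%, 86.3% and 47.2% in intact thalli and 0.3%, 0.6% and 0.2% in wounded ones (edgeR adjusted p = 0.017), and the 2 transcripts differ by few bases in length, 2641 against 2628. In Mp2g00110 the first transcript went from 90.2%, 50.7% and 64.3% to 93.8%, 91.6% and 91.9%, where intact replicate 1 lay just below the wounded libraries and the other 2 intact libraries far below them. The calls of Mp7g01880, Mp4g04660, Mp2g00110 and Mp4g10190 held in 7, 5, 5 and 6 of 10 alternatives, that of Mp7g16390 in 9 and that of Mp7g09280 in all 10. Of the 28 genes, 4 were called in every alternative: Mp7g09280, Mp1g29690, Mp6g09640 and Mp1g06550. Among genes with a symbol MpBHLH51 and MpPPO31 (2 of 10 each), MpPP2C_F3 (5 of 10), MpHAT3 (6 of 10), MpBK2A (7 of 10) and MpPOD164 (9 of 10) were called as well. MpBHLH51 has so few reads before wounding that its shares there are poorly known.

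Estimated transcript reads were variable, with a median biological coefficient of variation of 0.387 over the transcripts of these genes. In simulated counts 1 transcript was changed in 70 genes per fold. The isoform test recovered 17.1% of 2-fold, 31.4% of 4-fold and 72.9% of 16-fold changes. A gene that was not called may therefore have changed its isoform use. Of the 112 simulated calls 27 were false (24.1%). That share depends on how many genes truly change, which is not known for the data, where 28 genes were called. An unknown part of the 28 calls, small or large, may be false.

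**Figure D5:**
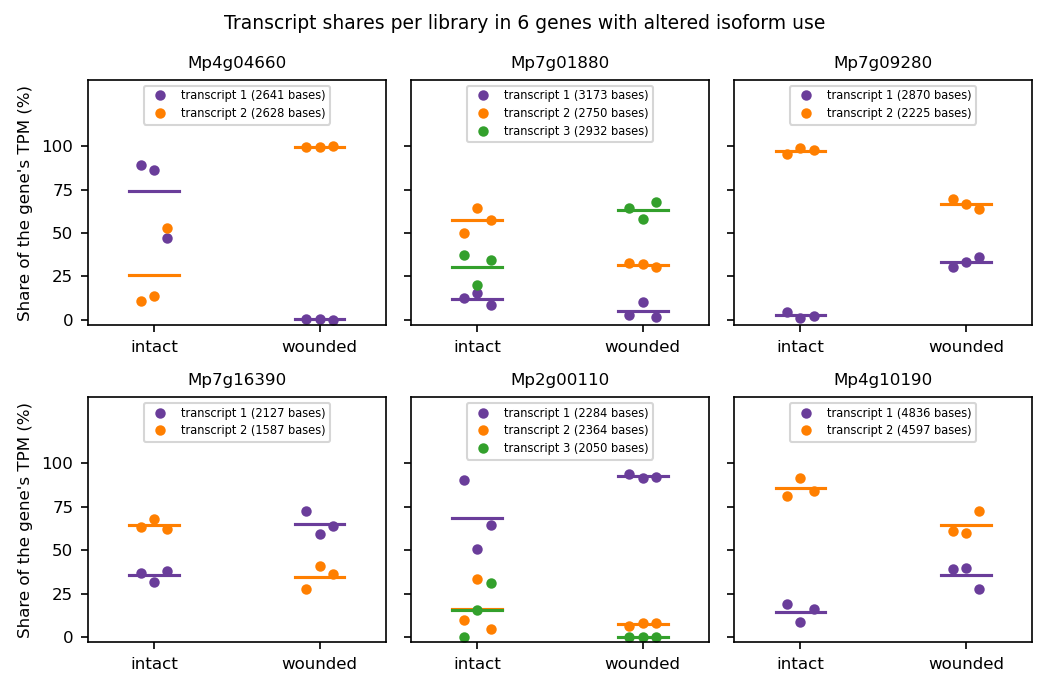
Points give each transcript's share of its gene's TPM in percent in the 3 intact and 3 wounded libraries, with a line at the mean, for the 6 called genes with the largest change in share among those with a mean of 5 TPM or more in both groups. In Mp7g09280 and Mp7g16390 the replicates lie close together in both groups, as with 2.6% and 33.4% for the mean share of the first transcript of Mp7g09280, while the intact libraries of Mp4g04660 and Mp2g00110 are spread widely.

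Genes that rose were in part neighbours. Gene IDs are numbered along the chromosomes. Of 10913 pairs of adjacent tested genes, 377 rose together by 2-fold or more, 33 fell together and 39 moved in opposite directions. Pairs that rose together made up 3.45% of all pairs, against 1.26% for the squared share of single rises. This difference was not tested, and no such value was computed for falls. Runs of 4 or more such genes with consecutive IDs numbered 25, all of them rises, with 118 genes in all. Single rises of 2-fold or more (11.2% of tested genes) were also more frequent than such falls (3.19%). The longest held 8 genes, from Mp4g14110 to Mp4g14180. It alternates phenylpropanoid and polyketide enzymes, with MpPAL7, MpPKS/CHS11, MpPAL6, MpPKS/CHS12, MpPAL-like2 and MpPKS/CHS13, and log2 fold changes of 1.30 to 3.22. A run of 7 from Mp5g16460 held the dirigent genes MpDIR61, MpDIR42, MpDIR41, MpDIR39 and MpDIR38 and the polyphenol oxidase MpPPO28 (2.04 to 6.06). Other runs held the LEA genes MpLEAL3 and MpLEA-like34 to MpLEA-like37 (3.09 to 5.56) and the factors MpBHLH2, MpBHLH3 and MpBHLH4 (4.48, 1.75 and 5.85) with 2 genes between them.

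Similar neighbours share reads, and a read placed on the wrong copy would make a neighbour follow. No member of the run from Mp4g14110, of the dirigent run from Mp5g16460 or of the LEA run had whole counts, and MpPPO28 and its neighbour Mp5g16500 had identical values. Over all runs 59 of the 118 genes had whole counts, among them all 5 of the run from MpGH17.15 to Mp6g00400 and all 4 of the run from MpSAUR8. The part of read sharing in the other 59 was not tested. The run of 5 from Mp5g07480 began with the gene of the largest rise and continued with Mp5g07490 (6.83), Mp5g07500 (5.0), Mp5g07510 (2.10) and Mp5g07520 (3.92). Across chromosomes the share of genes that rose by 2-fold or more was 8.6% on chromosome 1 and 10.9% to 13.0% on chromosomes 2 to 8. On the male V chromosome that share was 11.5%. By calls of any size, 10 of its 61 tested genes rose (16.4%) and 6 fell (9.8%), against 23.4% and 22.8% of all tested genes.

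A last comparison asked which of these changes differed in Mperf15ko. The difference between the 2 wound responses was called in 152 genes (1.07% of those tested), with 1714 at an unadjusted p under 0.05. Of the 152, 82 rose in Tak-1 and changed less, or not upward, in Mperf15ko and 37 rose in Tak-1 and rose further in Mperf15ko. A further 12 fell in Tak-1 and 21 were not called there. The count came to 61 without Tak-1 wounded replicate 2, to 65 without wounded replicate 3 and to 101 without intact replicate 2. DESeq2 called 472. The genes that led each class of level were not called in this comparison. MpERF21 changed by 8.51 in Tak-1 and by 5.34 in Mperf15ko (edgeR adjusted p of the difference 0.26), where intact thalli were at 0.272, 3.56 and 1.37 TPM. MpBHLH51 changed by 8.51 and 9.21 (adjusted p = 0.71) and Mp6g20040 by 2.69 and 2.59 (adjusted p = 0.88). A difference that was not called is not shown to be absent.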

How the data were processed

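RNA from Tak-1 thalli was sequenced from stranded mRNA libraries, per the labels' protocols. The deposited tables give TPM values and estimated counts for each transcript, per the file headers. CASAVA and Salmon 0.7.2 are the tools listed in the submitters' processing notes. Which build, annotation and settings were used is not given in the sources used here. The deposited TPM values were summed over 24751 transcripts to 19421 genes and used for levels. The deposited estimated counts were summed to genes, rounded to whole numbers and tested with edgeR 4.0.16 in R 4.3.3. The fit used TMM scaling, filterByExpr by group, glmQLFit (robust) and glmQLFTest, with all 12 libraries as 4 groups without a covariate. DESeq2 1.42.0 and limma 3.58.1 served as alternatives. Standard errors were derived from the fold changes and test statistics. Of the genes, 11595 had estimated counts within 0.001 of whole numbers for every transcript in all libraries and are called whole. The others share reads between transcripts, either with other genes or only within the gene, which this mark does not tell apart. Their levels are uncertain where copies of different genes are alike.

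The members and the 60 gene lists were chosen with earlier results of these data known. The lists were filled by symbol from a table of the assembly MpTak2_v7.1, which comes from a female accession and was used for names and gene order only. A locus tag was found for 17386 gene IDs (89.5%), of which 3091 carried a symbol. Lists of NADPH oxidase, of xyloglucan and pectin and of ribosomal protein genes found no member. Named genes are, in each class of level and direction, the 3 with a symbol and the 1 without that changed most and whose groups did not overlap. They also include the 5 most abundant genes of each group, the largest rise and fall of each list, the 6 isoform genes with the largest change in share among those with a mean of 5 TPM or more in both groups, MpERF15, MpJAZ and MpLOX2. Other genes named as members of a list or run, or as large movers in the TPM pool, were chosen after their values were seen.

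Counts drawn from the real means and dispersions were used to test the pipeline. Of 50 genes changed per fold, it recovered 50% at 1.5-fold, 90% at 2-fold, 94% at 4-fold and 100% at 8-fold. There were 6 false calls among 14246 genes. The changed genes were drawn only from genes above a floor of mean read counts scaled for library size. Recovery shares were not split by level, and none is given for genes under 1 TPM (median SE 0.443). With far more genes changed in the data, these shares need not hold there. Intervals of ratios cover counting error only.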

Additional observations from a re-analysis of the deposited data

Results flagged for a closer look

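The wound response of 5 genes that rose most in their lists differed between Tak-1 and Mperf15ko by the test of the difference itself, with edgeR's adjusted p over all genes. They are the genes called in this comparison among the 136 named genes. Each rose in all 3 wounded Tak-1 libraries above all 3 intact ones, as 26.8% of all tested genes did. Each had a smaller fold in Mperf15ko, but they were named for the largest rise of their list in Tak-1. Such a choice favours a smaller fold in the other line. Whether these 5 calls hold without 1 replicate was not examined. The difference, Mperf15ko minus Tak-1 on the log2 scale, was -1.25 for the kinase MpMAPKKK10 (adjusted p = 0.0041; 2.83 in Tak-1 and 1.58 in Mperf15ko). It was -1.46 for the factor MpNAC7 (adjusted p = 0.0069; 2.62 and 1.16) and -1.47 for the peroxidase MpPOD169 (adjusted p = 0.021; 2.20 and 0.73). It was -1.0 for the phosphatase MpPP2C_F3 (adjusted p = 0.029; 3.80 and 2.80) and -0.90 for the autophagy gene MpATG18c (adjusted p = 0.029; 2.95 and 2.04). Intact Mperf15ko thalli had higher mean levels of all 5 than intact Tak-1 thalli, at 6.42 against 5.17 TPM for MpMAPKKK10, 7.77 against 4.01 for MpNAC7, 3.89 against 2.14 for MpPOD169, 20.7 against 8.66 for MpPP2C_F3 and 7.21 against 5.38 for MpATG18c. The wounded level was lower in Mperf15ko for 4 of them, and for MpPP2C_F3 it was higher, at 144 against 123 TPM. The part of the level before wounding in the difference of folds was not tested.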

How the results depend on the processing

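Without 1 Tak-1 replicate, 3103 to 3338 genes were called higher and 2443 to 3148 lower, 1575 to 1674 rose and 382 to 612 fell by 2-fold or more, 61 to 136 differed from Mperf15ko and 19 to 30 were isoform calls. Genes with whole counts gave 1869 higher and 1692 lower (888 and 224 by 2-fold or more) from fewer genes tested, and a test against 1.5-fold, glmTreat, gave 1653 and 539. Upper quartile scaling gave 2758 and 4864, with 754 falls of 2-fold or more, 92 falls under 1 TPM and 1221 (against 909 rises) at 1 to 10 TPM, and turned Mp2g12030 from 0.08 to -0.06, neither called. Under 1 TPM, falls numbered 90 both with Mperf15ko classes and with 6-library mean classes, which gave 276 rises there and 320 at 100 TPM or more. DESeq2 called 472 differences from Mperf15ko. In estimated reads the pool shares moved by 0.301 points under 1 TPM and 1.093 at 1 to 10 TPM, against 0.339 and 0.882 in TPM, and by 2.809 (p = 0.2, exact permutation) at 10 to 100 TPM. limma called 60 isoform genes (20 shared with the 28). A replicate block called 11 (8 shared), 3148 genes higher and 2916 lower (1563 and 444 by 2-fold or more) and 111 differences from Mperf15ko. Deviations from the group mean in same-numbered libraries correlated at -0.375, 0.056 and -0.329 in Tak-1 and at 0.101, 0.277 and 0.069 in Mperf15ko. In Tak-1, 1 of 3 intact libraries correlated best with its own number. With 3 libraries a group these deviations are not independent, so the check cannot decide whether the numbers pair the samples. Of 136 named genes 115 had the same call in all alternatives run. The cause of these shifts was not tested unless stated. Genes under 1 TPM rest on few reads (median SE 0.443). The promoter words planned were not run.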
